A study of Mus musculus with 10 samples.

Results

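Notch signalling and the Esam-positive type 2 conventional dendritic cell (cDC2) programme were followed through 9 genes in dendritic cells sorted from mouse spleen. The genes were taken, by gene identifier, from a list chosen with earlier results of these data known. The list holds the Notch pathway genes Notch1, Notch2, Rbpj, Maml1, Maml2, Dtx1 and Hes1, and the Notch2-dependent cDC2 genes Esam and Cd4. These genes are 9 of the 53379 genes in the deposited count files. Of these, 9 of 9 were among the 14528 genes that passed the filter on low counts and were tested. The RNA sequencing series holds 10 libraries, each from sorted spleen cells of C57BL/6 mice aged 16 weeks. Cells rich in MHC class II and CD11c had been sorted either as CD11b- CD8+ or as CD11b+ CD8-, from spleens of individual mice. The groups were label CD8, Atg16l1 -/- (CD8 KO, n = 2), label CD8, Atg16l1 +/+ (CD8 WT, n = 3), label CD11b, Atg16l1 -/- (CD11b KO, n = 2) and label CD11b, Atg16l1 +/+ (CD11b WT, n = 3). Atg16l1 encodes a scaffold that autophagy needs to attach LC3 to membranes. The series title names a mouse model of atherogenesis, but no diet, further allele, promoter or Cre driver is given in the sources used here, so it is not known whether Atg16l1 was missing from every cell or from dendritic cells alone.

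Notch receptors are cut after a ligand on a neighbouring cell binds them, first by an ADAM protease and then by gamma-secretase. The freed intracellular domain enters the nucleus, binds the DNA-binding protein RBPJ and recruits a Mastermind-like coactivator to switch on targets such as Hes1 and Dtx1. In mouse spleen, signalling through Notch2 on dendritic cell precursors is needed for the cDC2 that carry ESAM on their surface, many of which also carry CD4, and for full differentiation of CD8+ type 1 conventional dendritic cells (cDC1).

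Gene counts ranged from 9467704 to 13768884 per library. Atg16l1, read first as a check of the genotype labels, stood at 1.73 to 3.31 CPM (counts relative to the library total) in the 4 KO libraries and at 13.3 to 32.7 CPM in the 6 WT libraries. In 10 of 10 libraries the subset label was contradicted by the marker transcripts. The 10 cDC1 markers summed to 368 to 529 CPM in the libraries labelled CD8 and to 4330 to 5184 CPM in those labelled CD11b. The 10 cDC2 markers summed to 1745 to 2011 CPM in the libraries labelled CD8 and to 119 to 174 CPM in those labelled CD11b. Labels were kept as given, so "label CD8" names libraries whose transcripts carry cDC2 markers and "label CD11b" names libraries whose transcripts carry cDC1 markers. B cell transcripts stood apart in CD8 KO 2, where 15 B cell markers summed to 2555 CPM, against 286 to 1006 CPM in the other 9 libraries.

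**Figure D1:**
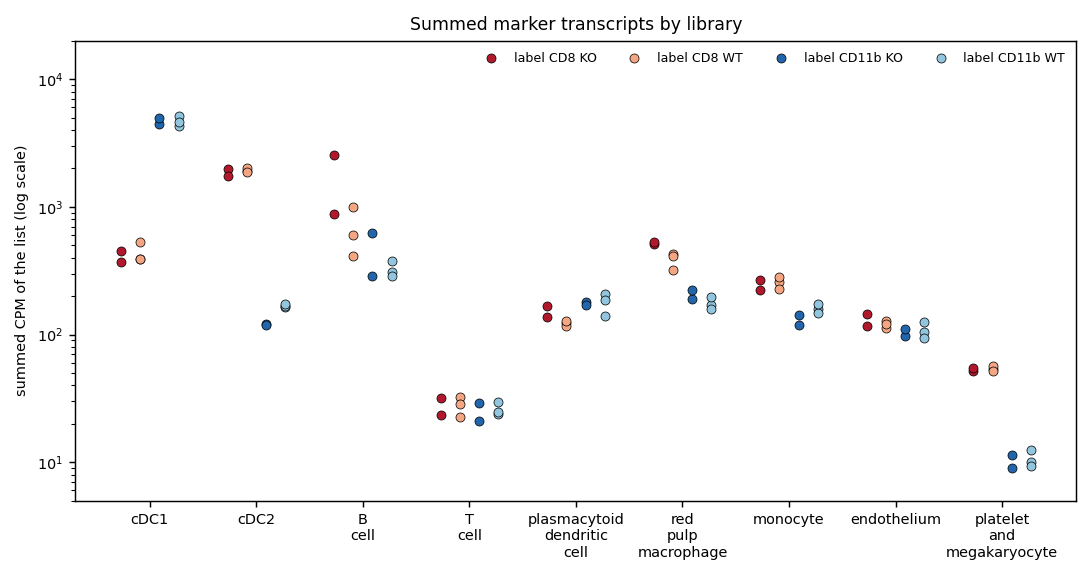
Summed CPM of the marker lists of 9 cell types (log scale), with 1 point per library and the 4 groups side by side. The cDC1 markers are high at the label CD11b and the cDC2 markers at the label CD8, and the point for B cell markers at 2555 CPM is CD8 KO 2.

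Levels of different genes were set side by side per kilobase of exon, as RPKM computed from the counts. Notch2, the receptor that splenic cDC2 need, was the most abundant of the 9 transcripts in each of the 4 groups. It averaged 61.3 ± 5.05 RPKM in CD8 KO (SD, n = 2), 67.1 ± 2.32 in CD8 WT (SD, n = 3), 53.3 ± 0.791 in CD11b KO (SD, n = 2) and 54.3 ± 3.05 in CD11b WT (SD, n = 3), which placed it between the percentiles 96.0 and 96.8 of the genes ranked. Notch1, the paralogous receptor known for T cell commitment, averaged 0.992, 1.07, 1.04 and 1.79 RPKM in the same order of groups. Within a library, the Notch2 level per length was 25.1 to 101 times the Notch1 level.

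The order of the other members differed between the labels. In CD8 KO the mean RPKM fell in the order Notch2, Dtx1, Cd4, Maml1, Hes1, Rbpj, Esam, Maml2 and Notch1, and the ranges of neighbours overlapped only for Rbpj and Esam. In CD8 WT the order was Notch2, Dtx1, Cd4, Maml1, Hes1, Esam, Rbpj, Maml2 and Notch1, with overlap only between Maml2 and Notch1. In CD11b KO it was Notch2, Maml1, Rbpj, Maml2, Cd4, Hes1, Esam, Notch1 and Dtx1, with overlap of Cd4 with Hes1 and of Esam with Notch1. In CD11b WT it was Notch2, Maml1, Rbpj, Hes1, Cd4, Maml2, Notch1, Esam and Dtx1, and from Cd4 down each member overlapped the next. Dtx1 held the second place at the label CD8 and the last place at the label CD11b, at 37.6 ± 1.76 RPKM in CD8 KO and 44.7 ± 4.22 in CD8 WT, against 0.559 ± 0.0755 in CD11b KO and 0.716 ± 0.218 in CD11b WT (SD). The RPKM values and these orders depend on the length used, which was the union of annotated exons. For Rbpj the union is 12750 bases and the longest transcript 5485, whereas Maml1 has 5528 bases by both. With the longest transcript as length, Rbpj would stand above Maml1 at the label CD11b. Notch1 has 14232 bases by the union and 9488 by the longest transcript, so its distance from Notch2 would shrink.

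**Figure D2:**
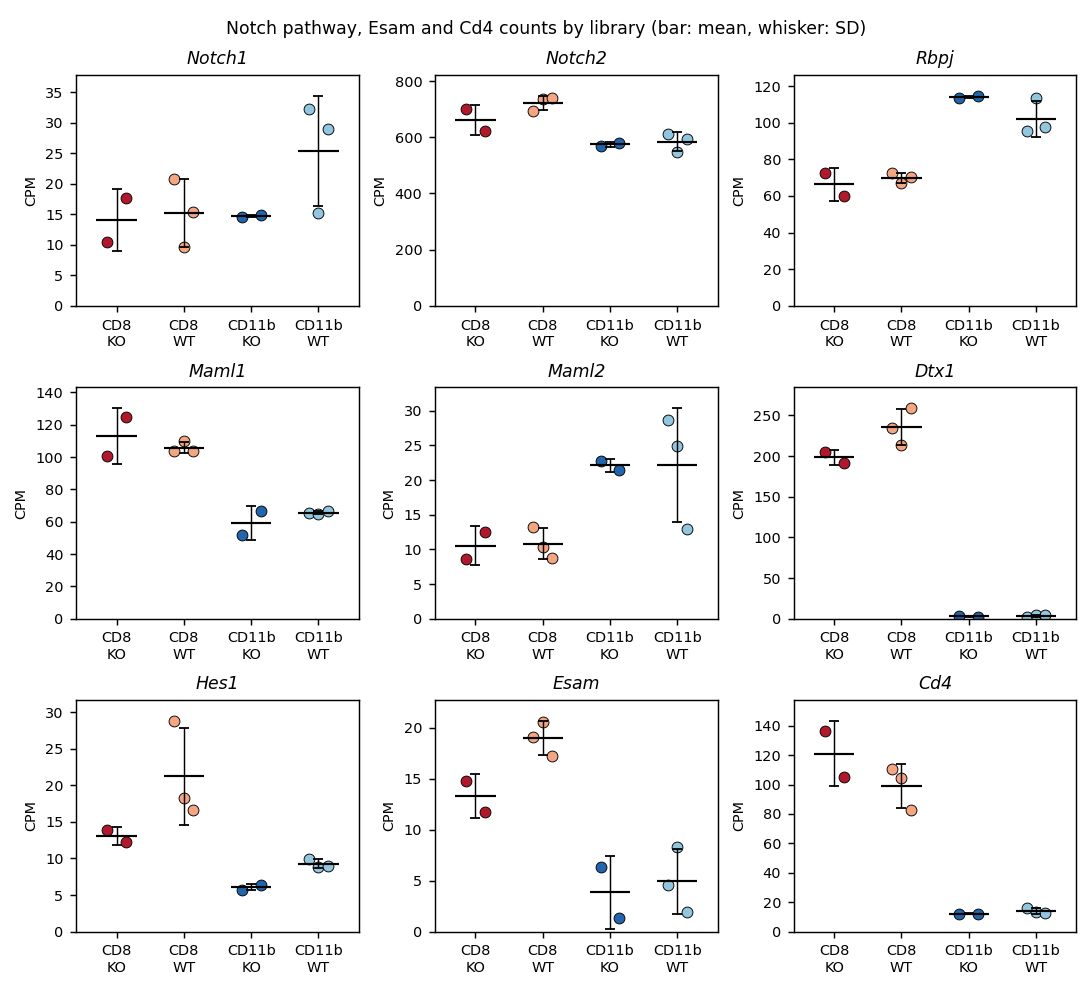
CPM of each of the 9 genes by library, with a panel per gene and its own axis from 0. Points are libraries, the horizontal bar is the group mean and the whisker is the SD (n = 2 in KO, n = 3 in WT). Dtx1 and Cd4 separate the labels widely, Notch2 only slightly, and the KO and WT points lie close in most panels.

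The comparison of the subset labels asks how the pathway and its cDC2 readouts are distributed between the 2 sorted populations. In the libraries labelled CD8, which carry cDC2 markers, Dtx1, Cd4, Esam, Hes1 and Maml1 were higher in both genotypes, and Rbpj and Maml2 were lower. Dtx1 was 67.5-fold higher in KO and 62.9-fold higher in WT, Cd4 10.01-fold and 6.97-fold, and Esam 3.51-fold and 3.80-fold. Notch2 differed little, by 1.15-fold in KO and 1.24-fold in WT, and was called only in WT. With edgeR's quasi-likelihood test and Benjamini-Hochberg adjustment over 14528 genes, 7 of 9 members passed an adjusted p of 0.05 in KO, against a background of 22.8% of the genes tested. Of the 7, 5 were higher and 2 lower, beside 12.5% and 10.3% of the genes tested. In WT 8 of 9 passed, against a background of 29.5%, with 6 higher and 2 lower, beside 15.7% and 13.8% of the genes tested. The groups did not overlap for 8 of 9 members in KO and for 7 of 9 in WT, against 58.7% and 41.5% of the genes tested. The median log2 fold change of the members was 0.93 in KO and 0.69 in WT, beside 0.01 and −0.003 over the genes tested. Because the members were chosen with earlier results of these data known, these shares describe the list and do not test it. Esam and Cd4 were moreover listed as cDC2 genes, and the libraries labelled CD8 carry cDC2 markers. The 3 KO calls with the largest p rested on single libraries: without CD8 KO 1, or without CD11b KO 2, the KO count was 4 of 9, since Hes1, Maml2 and Esam no longer passed.

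**Figure D3:**
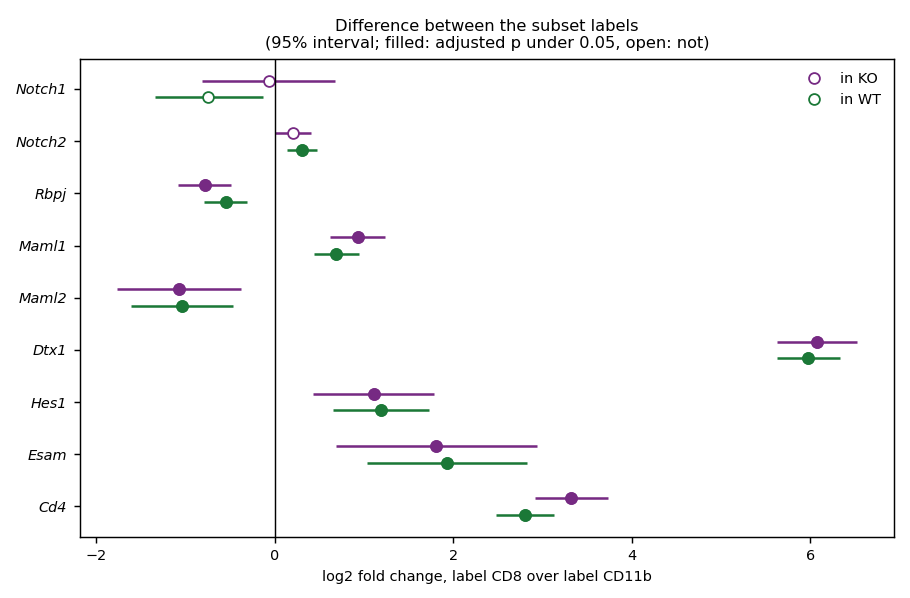
Log2 fold change of each of the 9 genes, label CD8 over label CD11b, within KO and within WT, with 95% intervals from the edgeR fit. Filled points passed an adjusted p of 0.05, and values right of 0 are higher at the label CD8. Dtx1 lies near 6 in both genotypes, and Rbpj and Maml2 lie left of 0 in both.

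Among the receptors, Notch2 (ENSMUSG00000027878, GRCm38 chromosome 3, 98013527 to 98150361) stood at 699.8 and 622.7 CPM in CD8 KO and at 568.5 and 580.6 CPM in CD11b KO. It stood at 694, 737 and 739 CPM in CD8 WT and at 613, 549 and 593 CPM in CD11b WT. The libraries labelled CD8 were the higher ones in each genotype, without overlap, by log2 0.20 ± 0.10 in KO (SE; edgeR adjusted p = 0.152, 95% interval 0.002 to 0.40) and 0.31 ± 0.08 in WT (SE; edgeR adjusted p = 0.00434). Notch2 had the steadiest counts of the 9 genes, with a biological coefficient of variation of 0.086 in the edgeR fit, lower than all but 0.7% of the genes tested.

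Notch1 (ENSMUSG00000026923, chromosome 2, 26457903 to 26516663) had 10.5 and 17.7 CPM in CD8 KO and 14.6 and 14.9 CPM in CD11b KO. In WT it had 20.8, 9.60 and 15.3 CPM at the label CD8 and 32.2, 15.2 and 28.9 CPM at the label CD11b. The labels overlapped in both genotypes, and Notch1 was the member not called in either, with log2 −0.07 in KO (95% interval −0.82 to 0.68; edgeR adjusted p = 0.937) and −0.74 in WT (95% interval −1.34 to −0.14; edgeR adjusted p = 0.0604). In WT it was called lower without CD8 WT 1 or without CD11b WT 2, and its adjusted p ranged from 0.00791 to 0.263 over the alternatives.

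Of the nuclear partners, Rbpj (ENSMUSG00000039191, chromosome 5, 53466152 to 53657362), the DNA-binding factor of the pathway, had 72.8 and 59.9 CPM in CD8 KO and 113.7 and 114.6 CPM in CD11b KO. It had 72.4, 67.1 and 70.5 CPM in CD8 WT and 95.4, 113 and 97.7 CPM in CD11b WT. Rbpj was thus lower at the label CD8 in each library, by log2 −0.78 ± 0.14 in KO (SE; edgeR adjusted p = 0.000176) and −0.55 ± 0.12 in WT (SE; edgeR adjusted p = 0.000717).

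The Mastermind-like coactivators moved in opposite directions. Maml1 (ENSMUSG00000050567, chromosome 11, 50255634 to 50292311) had 101 and 125 CPM in CD8 KO against 51.8 and 66.6 CPM in CD11b KO, and 104, 110 and 104 CPM in CD8 WT against 65.5, 64.8 and 66.5 CPM in CD11b WT. All 5 libraries labelled CD8 were above all 5 labelled CD11b, and Maml1 was higher by log2 0.93 ± 0.15 in KO (SE; edgeR adjusted p = 3.91e-05) and 0.69 ± 0.12 in WT (SE; edgeR adjusted p = 8.59e-05). Maml2 (ENSMUSG00000031925, chromosome 9, 13297957 to 13709388) had 8.57 and 12.5 CPM in CD8 KO against 22.8 and 21.5 CPM in CD11b KO, and 13.3, 10.4 and 8.80 CPM in CD8 WT against 28.6, 24.9 and 12.9 CPM in CD11b WT. Maml2 was lower at the label CD8, by log2 −1.07 ± 0.34 in KO (SE; edgeR adjusted p = 0.0223) and −1.04 ± 0.27 in WT (SE; edgeR adjusted p = 0.00519), although CD11b WT 3 lay within the range of CD8 WT. Its KO call was lost without CD8 KO 1, without CD11b KO 1 and without CD11b KO 2, with an adjusted p of 0.00361 to 0.215 over the alternatives. Per exon length, Maml1 was 12.96 times Maml2 in CD8 KO and 12.0 times in CD8 WT, against 3.20 times in CD11b KO and 3.99 times in CD11b WT.

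Among the targets, Dtx1 (ENSMUSG00000029603, chromosome 5, 120680202 to 120711927), which encodes the ubiquitin ligase Deltex and is induced by Notch, showed the widest difference of the 9 genes. It had 205 and 192 CPM in CD8 KO and 3.23 and 2.67 CPM in CD11b KO. It had 234, 214 and 258.5 CPM in CD8 WT and 2.51, 4.07 and 4.74 CPM in CD11b WT. All libraries labelled CD8 lay far above all those labelled CD11b, with log2 6.08 ± 0.22 in KO (SE; edgeR adjusted p = 2.2e-15) and 5.98 ± 0.17 in WT (SE; edgeR adjusted p = 1.83e-17).

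Hes1 (ENSMUSG00000022528, chromosome 16, 30064384 to 30067796), a transcriptional repressor and the best known Notch target, had 13.9 and 12.2 CPM in CD8 KO against 5.75 and 6.33 CPM in CD11b KO. It had 28.7, 18.3 and 16.6 CPM in CD8 WT against 9.95, 8.83 and 9.02 CPM in CD11b WT. Hes1 was higher at the label CD8 without overlap, by log2 1.11 ± 0.33 in KO (SE; edgeR adjusted p = 0.0151) and 1.19 ± 0.26 in WT (SE; edgeR adjusted p = 0.000928). The KO call was lost without CD8 KO 1, without CD11b KO 1, without CD11b KO 2 and with limma-voom, with an adjusted p of 0.0103 to 0.0952 over the alternatives.

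The promoters of Dtx1, Rbpj and Maml2 are shown because these members differed between the labels, in opposite directions, and because RBPJ binds DNA at a short motif. They are RefSeq windows of 300 bases on GRCm38.p6, from 250 bases before a transcript start to 50 after it, printed 5′ to 3′ on the gene's strand. Capitals mark the RBPJ core motif TGGGAA, which reads TTCCCA where it lies on the other strand. The windows are chr5:120711620-120711919, minus strand, for Dtx1, chr5:53590096-53590395, plus strand, for Rbpj, and chr9:13662210-13662509, plus strand, for the second start of Maml2. Rbpj and Maml2 each have 2 windows: the first of Rbpj and the second of Maml2 are printed. The first of Maml2, at chr9:13297708-13298007, held 0 core motifs. Maml1 and Notch2 were also called higher at the label CD8 in WT, but their windows, which held 0 core motifs, are not printed. A link between the motif and the direction was not tested.
Dtx1: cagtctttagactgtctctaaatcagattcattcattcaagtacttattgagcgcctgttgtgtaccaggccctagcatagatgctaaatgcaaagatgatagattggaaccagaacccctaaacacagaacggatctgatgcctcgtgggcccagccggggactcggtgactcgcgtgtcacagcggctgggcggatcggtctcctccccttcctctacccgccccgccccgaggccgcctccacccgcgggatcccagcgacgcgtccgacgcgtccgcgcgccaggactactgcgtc
Rbpj: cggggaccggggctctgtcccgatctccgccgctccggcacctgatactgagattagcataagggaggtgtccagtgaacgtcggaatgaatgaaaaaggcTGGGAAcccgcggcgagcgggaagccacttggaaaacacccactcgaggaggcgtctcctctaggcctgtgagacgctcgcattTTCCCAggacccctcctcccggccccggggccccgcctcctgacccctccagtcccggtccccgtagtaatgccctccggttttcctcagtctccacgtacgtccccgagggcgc
Maml2: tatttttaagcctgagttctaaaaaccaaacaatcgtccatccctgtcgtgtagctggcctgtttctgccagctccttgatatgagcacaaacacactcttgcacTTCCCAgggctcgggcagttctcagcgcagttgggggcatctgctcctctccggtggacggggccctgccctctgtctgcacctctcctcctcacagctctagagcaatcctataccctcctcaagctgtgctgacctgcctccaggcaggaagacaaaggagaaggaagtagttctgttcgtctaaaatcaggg
The Rbpj window held the motif at position −149 on the gene's strand and at position −65 on the other strand, counted from the transcript start to the first printed base of the motif. The second Maml2 window held it at position −145 on the other strand, and the Dtx1 window did not hold these letters. Promoter windows were at hand for 6 of the 9 members, namely Notch1, Notch2, Rbpj, Maml1, Maml2 and Dtx1, and of their 8 windows 3 held the core motif. These 3 were 2 overlapping Rbpj windows, which share the motif at −65, and the second Maml2 window. Of all 32851 RefSeq windows of the same length, 8397 (25.56%) held TGGGAA or TTCCCA. The longer form GTGGGAA, read on both strands, was in 2097 windows (6.38%) and in 0 of the members' 8 windows.

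Of the cDC2 surface genes, Cd4 (ENSMUSG00000023274, chromosome 6, 124864692 to 124888221), the coreceptor also carried by helper T cells and by mouse plasmacytoid dendritic cells, had 136.5 and 105 CPM in CD8 KO against 11.8 and 12.3 CPM in CD11b KO. It had 111, 104.5 and 82.4 CPM in CD8 WT against 16.4, 13.5 and 12.7 CPM in CD11b WT. The lowest library labelled CD8 stood above all libraries labelled CD11b, and Cd4 was higher by log2 3.32 ± 0.20 in KO (SE; edgeR adjusted p = 8.5e-12) and 2.80 ± 0.16 in WT (SE; edgeR adjusted p = 1.3e-12). The 12 T cell markers summed to 22.5 to 32.3 CPM at the label CD8 and to 21.0 to 29.7 CPM at the label CD11b. The 10 plasmacytoid dendritic cell markers summed to 117 to 168 CPM at the label CD8 and to 139 to 206 CPM at the label CD11b. Tcf4 gave 74.6 to 97.3 and 44.1 to 70.7 CPM of these sums. Of the 10, 4 were called lower and 0 higher at the label CD8 in WT, and 3 lower and 1 higher in KO. Of all genes tested, 13.8% and 10.3% were called lower. Siglech had 0.577 to 2.37 CPM at the label CD8 and 13.05 to 33.6 CPM at the label CD11b. The part of these cells in the Cd4 values was not tested.

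Esam (ENSMUSG00000001946, chromosome 9, 37528078 to 37538319), an adhesion molecule of endothelium, platelets and Notch2-dependent cDC2, was a scarce transcript. It had 14.8 and 11.8 CPM in CD8 KO, from 180 and 135 counts, against 6.36 and 1.33 CPM in CD11b KO, from 63 and 16 counts. It had 19.1, 20.6 and 17.2 CPM in CD8 WT, from 177, 227 and 182 counts, against 4.56, 8.30 and 1.95 CPM in CD11b WT, from 60, 110 and 21 counts. All libraries labelled CD8 exceeded all libraries labelled CD11b, by log2 1.81 ± 0.54 in KO (SE; edgeR adjusted p = 0.0168) and 1.93 ± 0.43 in WT (SE; edgeR adjusted p = 0.00121). The KO difference was log2 1.06 without CD11b KO 2, the library with 16 counts, and 3.31 without CD11b KO 1. It was not called without CD11b KO 2 or without CD8 KO 1, with an adjusted p of 9.13e-05 to 0.217 over the alternatives.

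Esam varied more than the other members among the libraries labelled CD11b. Its highest CPM there was 6.22 times its lowest, against 1.75 times among the libraries labelled CD8. The 12 endothelial markers summed to 113 to 145.5 CPM at the label CD8 and to 93.8 to 126 CPM at the label CD11b, with Emcn at 0 in all libraries. Pecam1 gave 76.8 to 102.7 CPM of these sums at the label CD8 and 64.5 to 84.3 CPM at the label CD11b. The 10 platelet and megakaryocyte markers summed to 51.7 to 56.7 CPM at the label CD8 and to 9.08 to 12.4 CPM at the label CD11b, with Treml1 at 0 in all 10 libraries. Itgb3, an integrin chain, gave 50.5 to 55.5 CPM of the sum at the label CD8. The part of these cells in the Esam values was not tested. In sorted bulk populations, fewer cells of a type and less RNA per cell cannot be told apart.

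The rest of the pathway was split between the labels. Of 70 further Notch genes on 7 lists, 65 were tested, and in WT 18 were higher and 16 lower at the label CD8, with a median log2 fold change of 0.11 beside −0.003 over the genes tested. In KO 14 were higher and 12 lower, with a median of −0.05 beside 0.01. Of all genes tested, 15.7% were called higher and 13.8% lower in WT, and 12.5% and 10.3% in KO, and the counts of the lists that follow stand beside the same shares. The KO count was 7 higher and 9 lower without CD8 KO 1, and 9 higher and 10 lower without CD11b KO 1.

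Ligands and receptors went both ways. Of 9 tested ligands and ligand ubiquitin ligases, 2 were higher and 3 lower at the label CD8 in WT. Neurl3, of the neuralized family of ubiquitin ligases, averaged 515.8 CPM in CD8 WT and 137 CPM in CD11b WT, a log2 fold change of 1.91 ± 0.10 (SE, with an edgeR adjusted p of 3e-13). The ligand Jag1 averaged 28.3 CPM in CD8 WT and 8.50 CPM in CD11b WT (log2 1.73; edgeR adjusted p = 6.39e-06), whereas its relative Jag2 averaged 10.5 CPM and 67.9 CPM (log2 −2.68; edgeR adjusted p = 1.38e-09). The receptor Notch4, best known from endothelium, was low at the label CD8 in each genotype, with 13.3 and 8.36 CPM in CD8 KO against 160 and 184 CPM in CD11b KO, and 12.96, 11.2 and 15.2 CPM in CD8 WT against 135, 140 and 132 CPM in CD11b WT. The groups lay far apart, and the log2 fold change was −3.98 in KO (edgeR adjusted p = 3.86e-13) and −3.37 in WT (edgeR adjusted p = 5.39e-14).

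Of 10 genes for cleavage of the receptor, 1 was higher and 5 were lower at the label CD8 in WT. The lower ones included the gamma-secretase subunit Psen2 (log2 −0.998; edgeR adjusted p = 0.00285). Aph1c (log2 −1.46) was lower too, but shares sequence with its paralog Aph1b, so the split of their reads is uncertain. Without CD8 WT 1, 0 were higher and 3 lower with edgeR. Of 5 glycosyltransferases, which set how receptors respond to each ligand, Mfng was higher (log2 0.92; edgeR adjusted p = 0.0102) and Poglut1 lower (log2 −1.08; edgeR adjusted p = 0.000201) in WT. The Mfng call was lost without CD8 WT 1 and without CD11b WT 2, with an adjusted p of 0.00593 to 0.0524 over the alternatives.

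Of 18 coactivators and corepressors outside the members, 7 were higher and 2 lower at the label CD8 in WT. Maml3, the remaining Mastermind-like gene, averaged 48.5 CPM in CD8 KO and 7.25 CPM in CD11b KO, and 51.3 CPM in CD8 WT and 8.19 CPM in CD11b WT. Its log2 fold change was 2.74 in KO (edgeR adjusted p = 4.71e-09) and 2.64 in WT (edgeR adjusted p = 1.23e-10), in the direction of Maml1 and against that of Maml2. The corepressor Ctbp2 was lower (log2 −1.11 in WT; edgeR adjusted p = 0.000272), and the corepressor Tle3 and the acetyltransferase Ep300 were higher (log2 0.76 and 0.51 in WT; edgeR adjusted p = 3.86e-07 and 4.15e-05). Of 12 trafficking and turnover genes, 2 were higher and 4 lower in WT, among them Numb, an inhibitor of Notch signalling (log2 −0.85; edgeR adjusted p = 0.000648).

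Of 13 further Notch target genes, 9 were tested and Hes5, Hey2, Heyl and Ptcra were not. In WT 5 of the 9 were higher at the label CD8 and 0 were lower with edgeR, and the median log2 fold change was 1.36. They included the cell cycle genes Ccnd1 (log2 1.57; edgeR adjusted p = 6.68e-12) and Cdkn1a (log2 2.09; edgeR adjusted p = 5.27e-11) and the growth regulator Myc (log2 1.36; edgeR adjusted p = 4.68e-05), which have many inputs besides Notch. The count was 3 higher without CD8 WT 1 or without CD11b WT 1. In KO 5 were also higher and 0 lower with edgeR, and 3 were higher when any 1 KO library was left out.

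**Figure D4:**
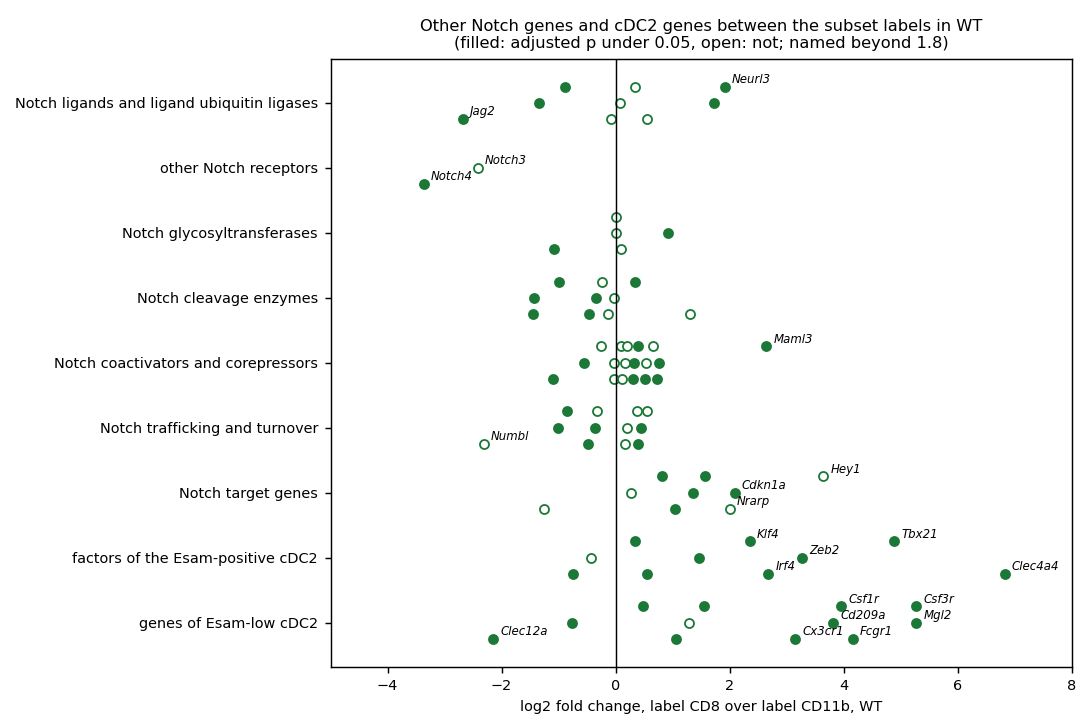
Log2 fold change in WT, label CD8 over label CD11b, of Notch pathway genes outside the 9 members and genes listed for Esam-positive and Esam-low cDC2. Each list has a row and each gene a point. Filled points passed an adjusted p of 0.05, and names are given to points beyond 1.8 in size. The cDC2 lists lie mostly right of 0, whereas the ligand, cleavage and trafficking lists lie on both sides.

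Genes listed for the 2 branches of splenic cDC2 were mostly higher at the label CD8. Of 10 factors and genes listed for the Esam-positive branch, 8 were higher and 1 lower in WT, with a median log2 fold change of 1.90. In KO 8 of the 10 were higher and 1 lower, with a median of 1.77. Among them were the transcription factors Irf4 (log2 2.68 in WT; edgeR adjusted p = 7.92e-14), Klf4 (log2 2.35; edgeR adjusted p = 6.86e-14) and Tbx21 (log2 4.88; edgeR adjusted p = 9.84e-14), and the lectin receptor Clec4a4 (log2 6.82; edgeR adjusted p = 3.06e-12). Of 12 genes linked to the Esam-low branch, 9 were higher and 2 lower in WT, among them the growth factor receptor Csf1r (log2 3.96; edgeR adjusted p = 1.15e-14) and the lectin Cd209a (log2 3.81; edgeR adjusted p = 1.87e-10), both higher, and Clec12a (log2 −2.15; edgeR adjusted p = 4.38e-11), which was lower. Genes of both branches were therefore higher in the same libraries, and the shares of the branches were not measured. Markers of other cells were also higher at the label CD8. Of 12 red pulp macrophage markers, 8 were called higher and 1 lower in WT, and 8 higher and 0 lower in KO. Of 14 tested B cell markers, 9 were called higher and 0 lower in WT, and 13 higher and 0 lower in KO. The part of these cells in the values of the 2 lists was not tested. Clec4a4, and from the Esam-low list Mgl2 and Csf3r, are also on the list of cDC2 markers by which the labels were read. Mgl2 and Csf3r were both called higher at the label CD8 in WT, so these calls are not independent of that reading. Whether each listed gene belongs to its branch was not tested, and Klf4 is not taken here as a marker of the Esam-positive one.

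The comparison of KO with WT asks what the loss of Atg16l1 changes in these genes. None of the 9 members passed the threshold in either label. In the libraries labelled CD8, Hes1, Esam and Dtx1 lay lower in KO than in WT without overlap, and in those labelled CD11b Notch1, Hes1 and Cd4 did, but no adjusted p passed the threshold. With edgeR, 0 of 9 members were called at the label CD8 and 0 of 9 at the label CD11b, against a background of 0.145% of the genes tested in each. DESeq2 and limma-voom also called 0 in both, and 1 member in each label, Hes1 at CD8 and Notch1 at CD11b, had an unadjusted edgeR p under 0.05, as did 6.52% and 6.42% of the genes tested. The groups did not overlap for 3 of 9 members at the label CD8 and for 4 of 9 at the label CD11b, against 24% and 20.5% of the genes tested. The median log2 fold change of the members was −0.11 and −0.24, beside 0.00 and −0.01 over the genes tested.

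**Figure D5:**
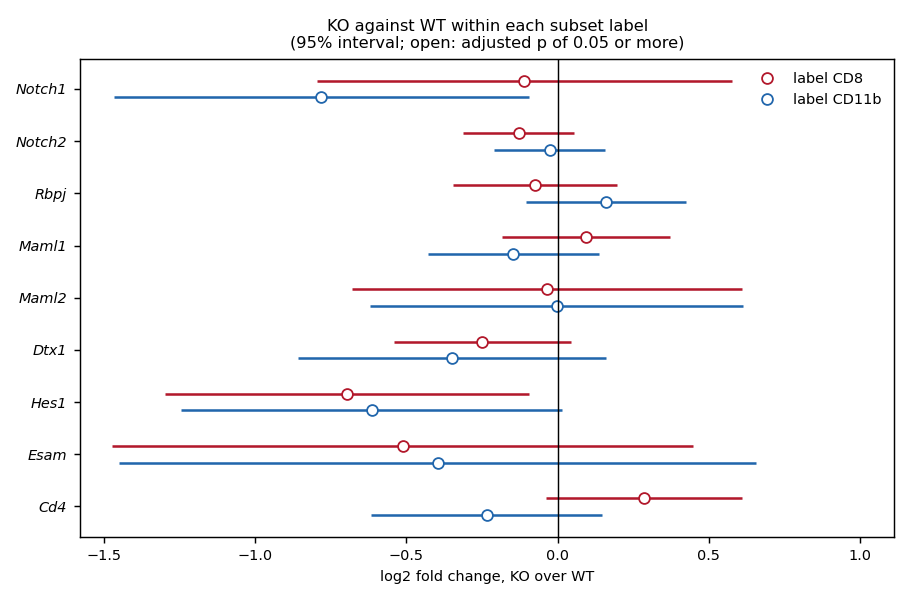
Log2 fold change of each of the 9 genes, KO over WT, within the label CD8 and within the label CD11b, with 95% intervals from the edgeR fit. All points are open because no adjusted p was under 0.05. The intervals of Notch2, Rbpj and Maml1 are the narrowest and those of Esam the widest.

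Hes1 averaged 13.1 ± 1.22 CPM in CD8 KO (SD, n = 2) and 21.2 ± 6.58 CPM in CD8 WT (SD, n = 3). Both KO libraries lay below all WT libraries, and the log2 fold change was −0.70 ± 0.29 (SE; 95% interval −1.30 to −0.10; edgeR adjusted p = 0.655). In the libraries labelled CD11b, Hes1 averaged 6.04 ± 0.411 CPM in KO (SD, n = 2) and 9.27 ± 0.598 CPM in WT (SD, n = 3), again without overlap, with a log2 fold change of −0.62 ± 0.30 (SE; 95% interval −1.25 to 0.02; edgeR adjusted p = 0.785). Hes1 was the one member to lie lower in KO in both labels without overlap. The share of all genes tested that do so in both labels was not counted. The fits of both labels share 1 estimate of the spread, and both populations may come from the same mice. The 2 values of Hes1 are therefore not taken as independent.

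Dtx1 averaged 198 ± 9.27 CPM in CD8 KO (SD, n = 2) and 236 ± 22.2 CPM in CD8 WT (SD, n = 3), a log2 fold change of −0.25 (95% interval −0.54 to 0.04; edgeR adjusted p = 0.837). Both KO libraries lay below the WT libraries, and the interval leaves room for a fall of up to 0.54 on the log2 scale. Among the libraries labelled CD11b, where Dtx1 had 64 counts in KO and 138 in WT in all, the log2 fold change was −0.35 (95% interval −0.86 to 0.16; edgeR adjusted p = 0.875) and the groups overlapped.

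Esam averaged 13.3 ± 2.17 CPM in CD8 KO (SD, n = 2) and 18.96 ± 1.67 CPM in CD8 WT (SD, n = 3), without overlap, with a log2 fold change of −0.51 (95% interval −1.47 to 0.45; edgeR adjusted p = 0.959). At the label CD11b it averaged 3.85 ± 3.55 CPM in KO and 4.94 ± 3.19 CPM in WT (SD), and its log2 fold change of −0.40 (95% interval −1.45 to 0.66) changed sign when CD11b KO 2 or CD11b WT 2 was left out. Cd4 averaged 121 ± 22.0 CPM in CD8 KO and 99.2 ± 14.9 CPM in CD8 WT (SD), with overlap, and its log2 fold change was 0.29 (95% interval −0.04 to 0.61; edgeR adjusted p = 0.815). Cd4 in the libraries labelled CD11b averaged 12.1 ± 0.371 CPM in KO and 14.2 ± 1.97 CPM in WT (SD), a log2 fold change of −0.24 (95% interval −0.62 to 0.15; edgeR adjusted p = 0.888).

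Beside these values at the label CD8, the B cell markers summed to 880 and 2555 CPM in KO, against 411 to 1006 CPM in WT, and the 12 red pulp macrophage markers to 514 to 534.5 CPM in KO, against 320 to 424 CPM in WT. The 10 plasmacytoid dendritic cell markers summed there to 136 to 168 CPM in KO, against 117 to 128.5 CPM in WT, and 1 of the 10 was called higher, Cox6a2 (log2 4.66; edgeR adjusted p = 0.0372). The cDC2 markers there summed to 1745 to 1965 CPM in KO and to 1883 to 2011 CPM in WT. The same markers at the label CD11b summed to 119.1 and 120.4 CPM in KO, against 164 to 174 CPM in WT. Of these 10 cDC2 markers 2 were called lower in KO there and 0 higher, beside 0.145% of the genes tested called in either direction. An unadjusted edgeR p under 0.05 was found for 5 of them, beside 6.42% of the genes tested. Their median log2 fold change was −0.64. The part of the cells that these lists mark in the members' differences was not tested. Without CD8 KO 2, the library with the most B cell transcripts, the fold changes of Hes1, Esam and Dtx1 at the label CD8 kept their sign. CD8 KO 1, the KO library then left, still had 880 CPM of B cell and 514 CPM of red pulp macrophage markers. The omission thus does not take other cells out. Over single libraries left out, the log2 fold change ranged from −0.85 to −0.42 for Hes1, −0.69 to −0.35 for Esam and −0.31 to −0.18 for Dtx1.

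Of the receptors, Notch2 averaged 661 ± 54.5 CPM in CD8 KO (SD, n = 2) and 723 ± 25.02 CPM in CD8 WT (SD, n = 3), a log2 fold change of −0.13 (95% interval −0.31 to 0.06; edgeR adjusted p = 0.901). In CD11b libraries Notch2 averaged 575 ± 8.53 CPM in KO and 585 ± 32.9 CPM in WT (SD), a log2 fold change of −0.03 (95% interval −0.21 to 0.16; edgeR adjusted p = 0.989). These are the narrowest intervals of the 9 genes in both labels, and the second value turned to 0.01 without CD11b WT 1. Notch1 averaged 14.8 ± 0.200 CPM in CD11b KO and 25.4 ± 9.04 CPM in CD11b WT (SD), a log2 fold change of −0.78 (95% interval −1.47 to −0.10; edgeR adjusted p = 0.721), and the lowest WT library, at 15.2 CPM, was close to the KO libraries. At the label CD8 its log2 fold change was −0.11 (95% interval −0.79 to 0.58) and turned positive without CD8 KO 1 or without CD8 WT 1.

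The nuclear partners lay close in both labels. Rbpj averaged 66.4 ± 9.11 CPM in CD8 KO and 69.98 ± 2.68 CPM in CD8 WT, and 114 ± 0.595 CPM in CD11b KO and 102 ± 9.72 CPM in CD11b WT (SD). Its log2 fold change was −0.08 at the label CD8 (95% interval −0.35 to 0.20) and 0.16 at the label CD11b (95% interval −0.10 to 0.43), where both KO libraries lay above the WT libraries. Maml1 differed by log2 0.09 (95% interval −0.18 to 0.37) and −0.15 (95% interval −0.43 to 0.14) in the 2 labels, and Maml2 by −0.04 (95% interval −0.68 to 0.61) and −0.003 (95% interval −0.62 to 0.61). The signs of Rbpj, Maml1 and Maml2 at the label CD8, and of Maml1 and Maml2 at the label CD11b, depended on single libraries.

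The difference between the KO effects of the labels, tested as an interaction in the same edgeR fit, was called for 0 of 9 members, against a background of 0.0206%. DESeq2 and limma-voom also called 0, and 1 member had an unadjusted edgeR p under 0.05, beside 5.46% of the genes tested. That was Cd4, whose KO effect was more positive at the label CD8 by log2 0.52 (95% interval 0.02 to 1.02; edgeR adjusted p = 0.884). The intervals for Hes1 (−0.95 to 0.78), Dtx1 (−0.48 to 0.68) and Esam (−1.54 to 1.31) spanned 0 widely.

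Outside the members, 0 of 65 tested Notch pathway genes were called between KO and WT with edgeR at either label, and 6 at the label CD8 and 4 at the label CD11b had an unadjusted p under 0.05, beside 6.52% and 6.42% of the genes tested. The median log2 fold changes of these 65 genes were −0.01 and 0.05, beside 0.00 and −0.01 over the genes tested. The values of smallest p at the label CD8 were those of Aph1b (log2 2.08; edgeR adjusted p = 0.21), a paralog pair with Aph1c, and of Adam17, a protease able to make the first cut of a receptor (log2 0.34; edgeR adjusted p = 0.56). Notch4, at the label CD11b, had a log2 fold change of 0.34 (95% interval 0.03 to 0.65; edgeR adjusted p = 0.726).

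Among the 10 factors listed for the Esam-positive branch, Irf4 alone was called at the label CD8 and 0 at the label CD11b. The share called was 0.145% of the genes tested in each label. Irf4, a transcription factor of cDC2 identity and function, had 350 and 309 CPM in CD8 KO against 227, 226 and 169 CPM in CD8 WT. Both KO libraries were above the WT libraries, and the log2 fold change was 0.67 ± 0.13 (SE; edgeR adjusted p = 0.0269). The call was lost without CD8 KO 1, without CD8 KO 2 and without CD8 WT 3, as well as without CD11b WT 1 and CD8 KO 2 together, and the adjusted p ranged from 5.03e-05 to 0.231 over the alternatives. With edgeR, 3 of the 10 factors had an unadjusted p under 0.05 at the label CD11b, beside 6.42% of the genes tested. At the label CD8, 5 of the 10 factors did, beside 6.52% of the genes tested. Besides Irf4, the factors of smallest p were Tbx21, at 63.9 CPM in CD8 KO and 99.9 CPM in CD8 WT (log2 −0.65, 95% interval −1.08 to −0.21; edgeR adjusted p = 0.419), Klf4 (log2 −0.30, 95% interval −0.54 to −0.05; edgeR adjusted p = 0.635) and Relb (log2 −0.24, 95% interval −0.46 to −0.02; edgeR adjusted p = 0.712). Tbx21 was called lower at the label CD8 with limma-voom (adjusted p = 0.0139) and when edgeR was fitted to only the libraries compared (adjusted p = 0.015). Of the 12 genes of the Esam-low branch 0 were called with edgeR at the label CD8, where 1 had an unadjusted p under 0.05, namely Lyz2, the lysozyme gene, with a log2 fold change of 0.43 (95% interval 0.16 to 0.70; edgeR adjusted p = 0.374). None of the 12 was called at the label CD11b with edgeR, where Cd209a had a log2 fold change of −1.26 (95% interval −2.10 to −0.43; edgeR adjusted p = 0.528). Without a filter on low counts, Lyz2 was called higher at the label CD8 (edgeR adjusted p = 0.0404) and Cd209a lower at the label CD11b (edgeR adjusted p = 0.00986). Cd209a was also called lower there without CD11b WT 2 (edgeR adjusted p = 0.0348).

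The genes most like Esam, Cd4 and Dtx1 over the 10 libraries were found by Pearson's r of log2 CPM among 8729 genes, as a description, since the libraries share the split of the labels. For Dtx1 they were Bhlhe40 (r = 0.998), Tmem176b (r = 0.997) and Sirpa (r = 0.997), and 1082 genes exceeded an r of 0.9. For Cd4 they were Ssh2 (r = 0.998), Pmvk (r = 0.998) and Siglecg (r = 0.995), and 1064 genes exceeded 0.9. For Esam they were Rnd3 (r = 0.962), Rasal1 (r = 0.96) and Yeats4 (r = 0.946), and only 61 genes exceeded 0.9. Rasal1 had 9.97 and 10.7 CPM in CD8 KO, 17.5, 16.8 and 13.4 CPM in CD8 WT, 2.42 and 1.33 CPM in CD11b KO, and 2.81, 4.98 and 1.49 CPM in CD11b WT. As with Esam, its lowest libraries at the label CD11b were KO 2 and WT 3. Rasal1 was picked for its likeness to Esam over these same libraries, so this match adds no separate evidence.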

How the data were processed

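Dendritic cells sorted from mouse spleen were profiled by strand-specific total RNA sequencing in 10 libraries. Per the submitters' processing notes the aligner was STAR 2.5.0a and the genome GRCm38, and the authors deposited raw counts per gene for both strands together and for each strand. The annotation release and the handling of duplicate reads are not given in the sources used here. The counts of the sense strand were used, which summed to 16.1 times those of the opposite strand. Notch1, Rbpj, Maml1 and Maml2 overlap predicted or small genes on the other strand, whose reads these counts keep apart. On the same strand Notch1 overlaps Mir6996, and Notch2 overlaps Gm42819 and Gm42820. Maml2 overlaps Gm47087, Phxr4, Gm47089 and Gm22643 there. The strand does not keep these genes apart. Reads mapped to several places (21.73% to 25.53%) were not counted. Symbols, positions and exon lengths came from GENCODE M21 for 53274 of 53379 gene identifiers.

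CPM were computed from the counts with TMM-scaled library sizes, and RPKM by dividing CPM by the union of exons in kilobases. Genes were filtered with filterByExpr by group, which left 14528. In edgeR 4.0.16, all 10 libraries entered 1 quasi-likelihood model with a mean for each of the 4 groups (common dispersion 0.0862, with residual degrees of freedom of 6 and prior ones of 16.1), and 2-sided p-values were adjusted by Benjamini-Hochberg over all genes of a comparison and called under 0.05. Intervals are 95%. The mice are individual per the labels' protocols, which do not say whether both populations came from the same mice. The libraries carry no stated molecular identifiers.

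The 9 members and 20 gene lists were chosen with earlier results of these data known. Named were the members, Atg16l1, from each list described at most 4 other genes of smallest p in that comparison, defining markers at 0, and the 3 genes best correlated with Esam, Cd4 and Dtx1 at a mean of at least 5 CPM. Not every gene so chosen is reported here. The alternatives tried were no filter, RLE size factors, limma-voom (limma 3.58.1) weighted by library quality, DESeq2 1.42.0, counts of both strands, a filter of 1 CPM in at least 3 libraries, omission of each library, fits of only the libraries compared, a block on the replicate number, removal of mitochondrial and ribosomal RNA genes, another length for RPKM, and, chosen after seeing the data, leaving out CD11b WT 1, which had the most genes with a count (20918, against 16652 to 19420 elsewhere), and CD8 KO 2, which had the most B cell transcripts, together. R 4.3.3 and Python 3.11.15 were used.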

Additional observations from a re-analysis of the deposited data

Results flagged for a closer look

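In counts outside the main measurement, reads on the strand opposite to Rbpj were higher in KO than in WT at the label CD8. The Rbpj locus had 11 and 8 opposite-strand counts in CD8 KO, against 1, 4 and 1 in CD8 WT, and the KO mean was 0.801 CPM. At the label CD11b the order was the other way round, with 6 and 2 opposite-strand counts in KO against 21, 10 and 19 in WT. The predicted genes Gm10441 and Gm40304 overlap Rbpj on that strand. The counts are few, 9 genes were looked at in 2 labels, and no test was made. The test of a single extreme value within a group was not made, because no group holds 4 or more libraries.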

How the results depend on the processing

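Between the subset labels, Dtx1, Cd4, Maml1 and Rbpj were called in the same direction in each alternative in both genotypes, and Notch2, Esam, Hes1 and Maml2 in WT. In KO the count of members called was 4 to 7 over single libraries left out (4 without CD8 KO 1 or without CD11b KO 2) and 6 with limma-voom. In WT it was 8 to 9, and 9 without a filter, with unstranded counts, with limma-voom and with the replicate block, where Notch1 joined. Between KO and WT, and for the difference of their effects, 0 members were called under all alternatives.

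Signs of small differences turned. With 1 library left out, the log2 fold change between KO and WT at the label CD8 ranged from −0.52 to 0.22 for Notch1, −0.33 to 0.21 for Maml2, −0.22 to 0.063 for Rbpj and −0.064 to 0.24 for Maml1. At the label CD11b it ranged from −0.34 to 0.022 for Maml1, −0.27 to 0.22 for Maml2, −1.89 to 0.35 for Esam and −0.07 to 0.009 for Notch2. The difference of effects ranged from −0.33 to 0.24 for Maml2, −0.23 to 0.20 for Hes1, −0.86 to 1.38 for Esam and −0.081 to 0.33 for Dtx1, and Notch1 between the labels in KO from −0.49 to 0.26. Maml2 at the label CD11b was 0.003 with RLE, 0.001 with the CPM filter, 0.004 with DESeq2 and 0.16 with limma-voom. Without CD11b WT 1 and CD8 KO 2 together, Rbpj and Maml1 at the label CD8 were 0.063 and −0.064, Notch2 and Maml2 at the label CD11b 0.017 and 0.23, and the difference for Esam 0.10. The cause was not tested.

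After centring within groups, same-numbered libraries of the 2 labels showed correlations of 0.018 to 0.049, and differently numbered ones of −0.041 to 0.012. The same-numbered values were the higher ones in both genotypes, but all were small. In KO, with 2 libraries per group, centring forces values of equal size and opposite sign. Whether the numbers pair the libraries was therefore not settled. With the replicate block 0, 0 and 0 members were called for KO against WT at the labels CD8 and CD11b and for their difference. It called 7 between the labels in KO and 9 in WT, and Notch1 between KO and WT at the label CD8 was 0.04. Between the labels, the block joined same-numbered libraries of 1 genotype. For KO against WT and the difference, it joined same-numbered libraries of both genotypes, which are different mice, a pairing that the labels do not give. With the longest transcript as length, 23 of 36 RPKM means moved by more than their SD. Where leaving out a library left 1 in a group, that library was assumed to vary like the other groups. Groups of 2 and 3 libraries and the few Esam counts at the label CD11b limit what can be detected.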

Other observations

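The ratio of Cd4 to Esam, chosen after its values were seen and given without a test, separated the genotypes at the label CD8. Per exon length, Cd4 was 6.37 to 6.55 times Esam in CD8 KO, against 3.40 to 4.12 times in CD8 WT. At the label CD11b the ratio was 1.32 to 6.58 in KO and 1.16 to 4.61 in WT, with overlap and with few Esam counts.

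Rnd3, the gene closest to Esam in pattern, had 31.1 and 31.1 CPM in CD8 KO, against 44.3, 42.8 and 40.2 CPM in CD8 WT. Both KO libraries lay below the WT libraries, as for Esam. In the libraries labelled CD11b it had 19.2 and 12.6 CPM in KO, against 19.6, 21.8 and 15.4 CPM in WT, with overlap. Yeats4, a reader of histone acetylation, had 44.8 and 41.7 CPM in CD8 KO, against 53.4, 52.8 and 50.3 CPM in CD8 WT. These genes were picked for their likeness to Esam over the same libraries, so their values add no separate evidence.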
